A study of Homo sapiens with 2 samples.

Results

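Aminoacyl-tRNA synthetases are the enzymes that attach each amino acid to its tRNA, and their mRNAs are described here in K562 cells treated for 6 h with each of 74 treatments. The list holds 35 genes, taken by symbol: 19 whose enzymes work in the cytosol and 16 whose enzymes work in mitochondria. All 35 were found among the 57905 gene lines, and all 35 passed the filter on low counts, which left 10312 genes for testing. Every count given for the list therefore covers the whole list.

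K562 is a human leukaemia cell line, derived from chronic myeloid leukaemia, that expresses erythroid genes. Cells in 96-well plates received compounds that act on transcription or on chromatin regulators, and 3′ ends of mRNAs were counted per well by MAC-seq, in which each well has its own barcode and all wells of a plate form 1 library. Both plates hold the same layout. AZ5576 (a CDK9 inhibitor), ActD (actinomycin D, which intercalates into DNA), JQ1 (a BET bromodomain inhibitor) and A485 (an inhibitor of the acetyltransferases p300 and CBP) had 6 wells each, IBET_762 (another BET inhibitor) had 4 wells, and the remaining treatments named below had 2 wells each. The vehicle DMSO had 24 wells. No dose is given for any compound, and all wells share the cell line and the time of 6 h. Duplicates are technical, so the p-values speak only to well-to-well spread within 1 experiment.

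Cytosolic and mitochondrial synthetases are, for most amino acids, encoded by separate nuclear genes, and the mitochondrial enzymes are imported to serve the translation of the few proteins encoded by mitochondrial DNA. GARS1 and KARS1, for glycine and lysine, each encode both forms. Synthetases fall into class I and class II by the fold of their catalytic domain, and a group of cytosolic enzymes (EPRS1, IARS1, KARS1, LARS1, MARS1, QARS1 and RARS1) is held in a multisynthetase complex with the scaffold proteins AIMP1, AIMP2 and EEF1E1. Many cytosolic synthetase genes are targets of ATF4, the transcription factor of the amino acid response, which is translated when uncharged tRNA activates the kinase GCN2.

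Depth limits what can be seen for the mitochondrial set. Wells held 173553 to 1906446 human counts, with a median of 265248 in the 16 wells of the first plate column and 800352.5 in the other 176. A cytosolic member had on average 16 (CARS1) to 102 (FARSA) counts per well and a mitochondrial member 3.11 (AARS2) to 22.9 (IARS2). The erythroid markers were present in DMSO wells, with 17300 CPM for the fetal globin HBG2 and 135 CPM for the erythroid transcription factor KLF1, while BCR (3.28 CPM) was below the filter. Among markers of other cell types, EPCAM passed the filter (69.3 CPM in DMSO), and CD3E, MS4A1, CD14 and ALB had 0 to 0.45 CPM. CPM elsewhere is counts per 1000000 with TMM factors; the marker values are a share of human counts summed over DMSO wells.

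Most treatments called no synthetase mRNA. Of the 74 treatments, 22 called at least 1 member against DMSO (edgeR, quasi-likelihood test, adjusted p under 0.05 over all genes tested) and 52 called none. Over all pairs of a member and a treatment, the cytosolic set had 29 higher and 28 lower calls in 1406 pairs (2.06% and 1.99%), and the mitochondrial set had 2 higher and 19 lower calls in 1184 pairs (0.169% and 1.6%). Over all genes tested, 2.55% of pairs were called higher and 2.42% lower. The balance of directions depended on the scaling: the 35 members had 31 higher and 47 lower calls with TMM, 22 and 55 with RLE factors, 14 and 87 by library size alone, and 28 and 228 on the ERCC scale. The shares over all genes above are with TMM, and such totals are not given for the other scalings. The mitochondrial set had few higher calls, and its members also have the lower counts, whose part in this was not tested. EtOH, a second vehicle, called 0 members and 82 of 10312 genes (0.795%) against DMSO.

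Calls were spread unevenly over the members. FARSA, the catalytic alpha subunit of cytosolic phenylalanyl-tRNA synthetase, was lower in 8 treatments and higher in 2, the most calls of any member. KARS1 and WARS1 (tryptophan) were each higher in 6 treatments and lower in none with TMM. On the ERCC scale KARS1 turned negative in 5 of its 6 treatments and WARS1 in 3 of 6. With methylation inhibitor wells in place of DMSO, the 4 WARS1 calls that have a value there were all lost. Their log2 differences were 0.14 (ActD), 0.34 (DRB), 0.25 (A159) and 0.37 (okadaic acid). JIB_04 and MS023 have no value because their wells are part of that reference. WARS1 was itself called higher with both against DMSO (0.97 and 0.66), and the part of this in the losses was not tested. AARS1 (alanine) was lower in 6 and higher in none, and PARS2, the mitochondrial prolyl enzyme, was lower in 5. FARSB (the beta subunit of the phenylalanyl enzyme) and RARS1 (arginine) were each higher in 4, MARS2 (mitochondrial methionine) was lower in 4, and CARS1, VARS1, YARS1 and YARS2 were each lower in 3. GARS1, IARS1 and LARS1 of the cytosolic set and FARS2, HARS2, IARS2, LARS2, NARS2 and WARS2 of the mitochondrial set were called in 0 of the 74 treatments. Among these 9 are the 4 members with the longest spans in GENCODE v29, FARS2 (510.1 kb), LARS2 (160.3 kb), NARS2 (138.9 kb) and WARS2 (109.5 kb), which were looked up after the calls were seen.

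**Figure D1:**
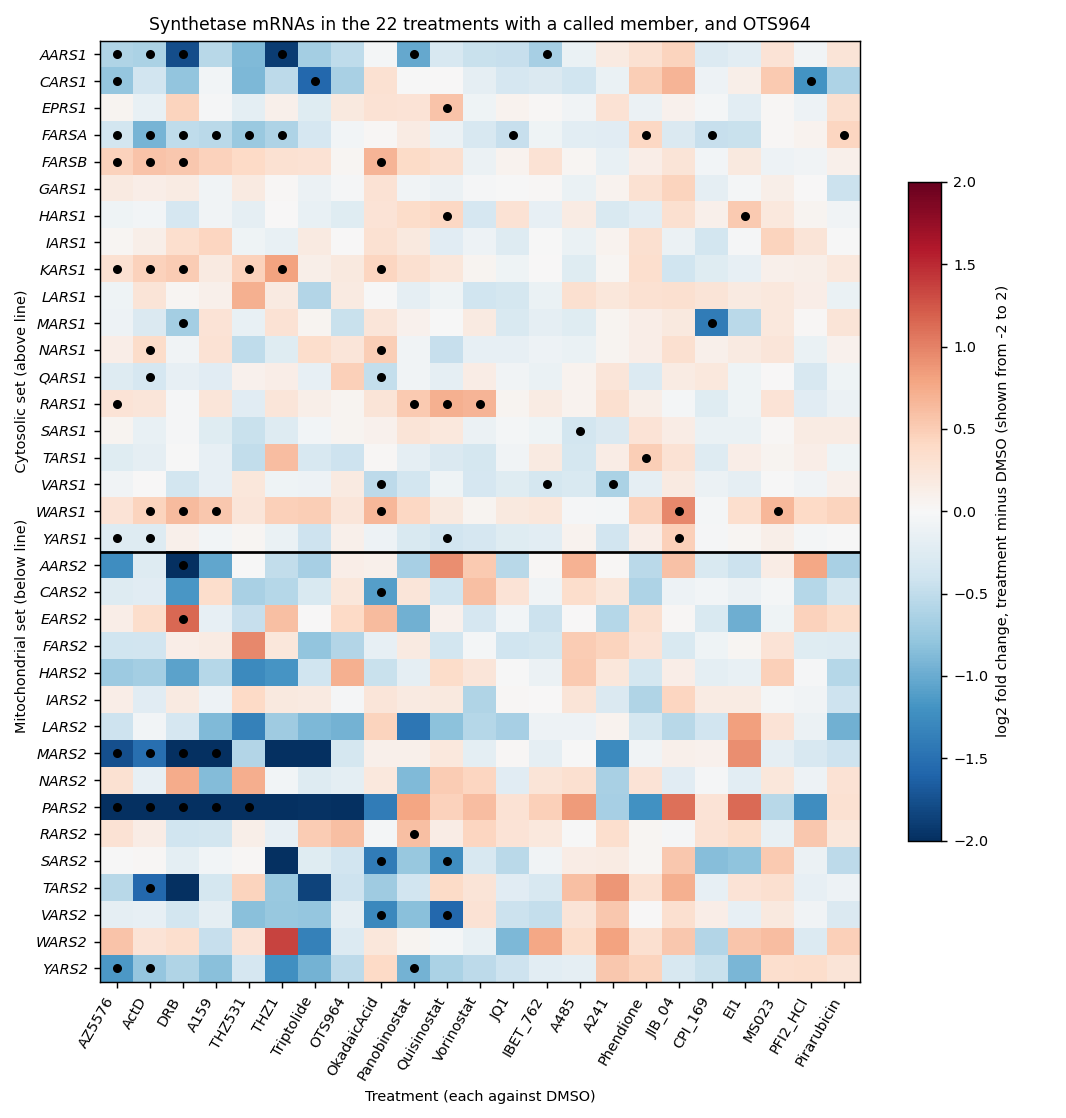
Log2 fold change of each of the 35 members (19 cytosolic above the line, 16 mitochondrial below it) in the 22 treatments with a called member and in OTS964, each against DMSO; black dots mark adjusted p under 0.05. Colours stop at -2 and 2, and members with 0 counts in a treatment are drawn at the lower limit. FARSA is called in 10 columns. PARS2 is at the lower colour limit under AZ5576, ActD, DRB, A159, THZ531 and THZ1. MARS2 reaches that limit under A159 and DRB, and AARS2 and TARS2 reach it under DRB.

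AZ5576 lowered a few synthetase mRNAs and raised a few, relative to the other genes, and the cytosolic set as a whole stayed near the middle of all genes. Of the 19 cytosolic members 3 were higher and 4 lower, and of the 16 mitochondrial members 0 were higher and 3 lower. Among all genes tested, 19.2% were higher and 28.1% lower. The median log2 fold change was -0.07 for the cytosolic and -0.33 for the mitochondrial set, against -0.14 over all genes. In bulk samples, fewer cells and less RNA per cell cannot be told apart.

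The largest falls under AZ5576 were in mitochondrial members. YARS2 (mitochondrial tyrosine) had 2.171 to 13.1 CPM (median 8.27) in AZ5576 wells and 7.53 to 28.9 (median 18.7) in DMSO wells, a log2 fold change of -1.15 (SE 0.306, adjusted p = 0.000173). MARS2 had 0 to 6.55 CPM (median 1.085) in AZ5576 wells and 3.77 to 24.45 (median 8.27) in DMSO wells (log2 fold change -1.76, SE 0.555, adjusted p = 0.000458). In 5 of the 6 AZ5576 wells MARS2 lay below every DMSO well. PARS2 gave 3 counts in all AZ5576 wells, with 4 of the 6 at 0, and 93 counts in DMSO wells, a ratio of 0.185 with an exact counting interval of 0.0375 to 0.558 (edgeR adjusted p = 0.00125). Such intervals cover counting error only.

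Among cytosolic members, both subunits of phenylalanyl-tRNA synthetase moved, in opposite directions relative to other genes. FARSA had 96.0 to 123.7 CPM (median 106.5) in AZ5576 wells and 94.3 to 160.7 (median 137) in DMSO wells, a log2 fold change of -0.36 (SE 0.0982, adjusted p = 0.00101), and the groups overlapped. FARSB had 51.5 to 89.2 CPM (median 73.3) in AZ5576 wells and 24.3 to 67.2 (median 46.7) in DMSO wells, a log2 fold change of 0.47 (SE 0.132, adjusted p = 0.00247) that turned to -0.26 with ERCC scaling. CARS1 (cysteine) and AARS1 also fell. CARS1 had a median of 14.8 CPM in AZ5576 wells and 24.7 in DMSO wells (log2 fold change -0.78, SE 0.256, adjusted p = 0.00404). AARS1 had 13.1 to 46.25 CPM (median 20.6) in AZ5576 wells and 22.3 to 51.2 (median 34.3) in DMSO wells, a log2 fold change of -0.60 (SE 0.194, adjusted p = 0.0043). YARS1 (tyrosine) stood at -0.26 (SE 0.1, adjusted p = 0.0215). KARS1 rose, with a median of 145 CPM in AZ5576 wells and 113 in DMSO wells (log2 fold change 0.30, SE 0.093, adjusted p = 0.00522), a direction that turned to -0.0222 by library size alone and to -0.425 on the ERCC scale. RARS1 stood at 0.27 (SE 0.116, adjusted p = 0.0452), a call that RLE factors, an unfiltered gene set, DESeq2, either plate alone and each first-column alternative ended, and whose value was -0.0462 by library size alone and -0.453 on the ERCC scale.

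The uncalled members nearest the threshold were HARS2 (log2 fold change -0.73, adjusted p = 0.0552), WARS1 (0.27, adjusted p = 0.0792), AARS2 (-1.24, adjusted p = 0.0823) and QARS1 (-0.26, adjusted p = 0.102). Scaling decided the balance of directions. Against 3 higher and 7 lower with TMM, 1 member was higher and 10 lower with RLE factors, 0 and 18 by library size alone, and 0 and 31 with scaling to ERCC, synthetic RNAs added to every well. The median of all genes under AZ5576 was then -0.87, and that of the cytosolic and mitochondrial sets -0.83 and -1.07. Of all genes tested, 491 were higher and 4711 lower by library size alone, and 40 and 8125 on the ERCC scale. With a single plate, 5 members were called without plate 1, and 2 members without plate 2.

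**Figure D2:**
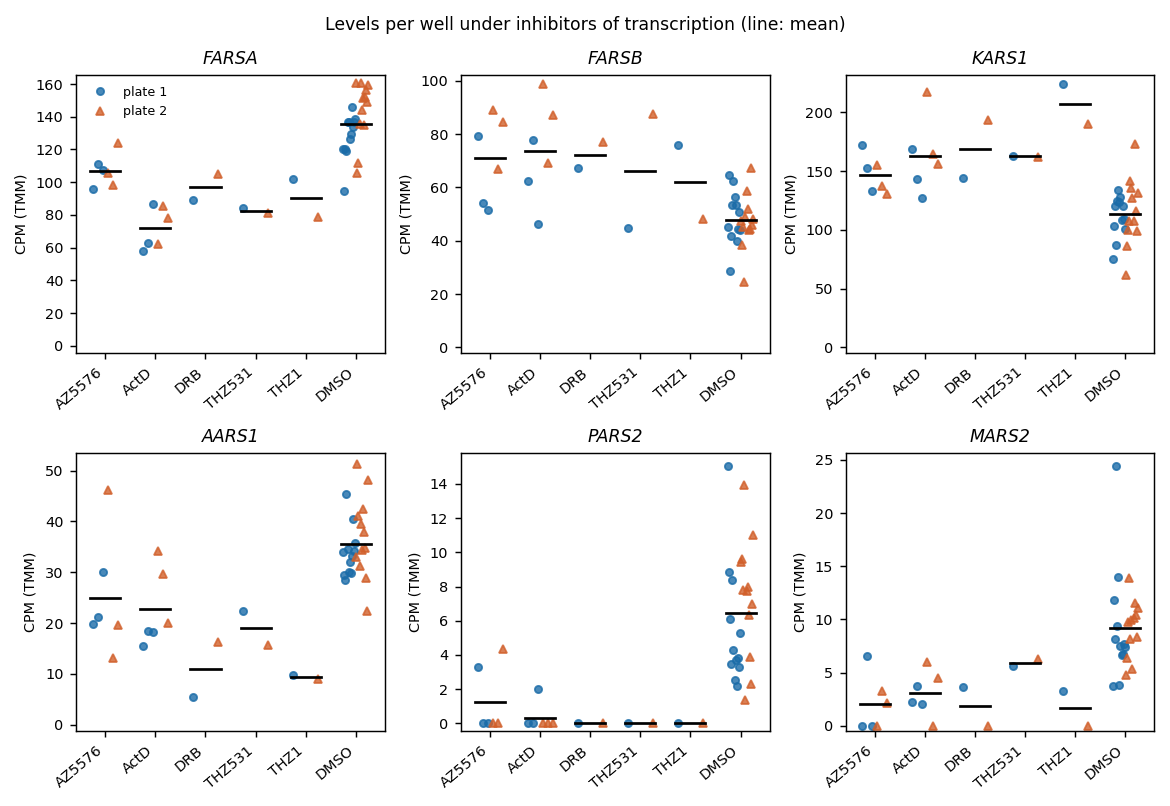
Levels of 6 members in single wells (CPM with TMM factors) under 5 inhibitors of transcription and in DMSO; blue circles are plate 1, orange triangles plate 2, and lines are group means. FARSA is lower and FARSB and KARS1 higher than in DMSO on this scale, and PARS2 is at 0 in every DRB, THZ531 and THZ1 well.

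ActD, which blocks transcription by binding DNA, gave the largest change of any cytosolic member in a group of 6 wells. FARSA had 57.8 to 86.8 CPM (median 70.7) in ActD wells and 94.3 to 160.7 (median 137) in DMSO wells. All 6 ActD wells lay below all 24 DMSO wells (log2 fold change -0.93, SE 0.11, edgeR adjusted p = 2.68e-14), and the call held under every alternative tried. Of the cytosolic members 4 were higher and 4 lower, and of the mitochondrial members 0 were higher and 4 lower, against 18.6% of all genes higher and 24.7% lower. The median was -0.06 for the cytosolic and -0.23 for the mitochondrial set, against -0.11 over all genes.

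FARSB again stood opposite to FARSA on the TMM scale. It had 46.4 to 98.65 CPM (median 73.6) in ActD wells and 24.3 to 67.2 (median 46.7) in DMSO wells (log2 fold change 0.57, SE 0.126, adjusted p = 0.000115, turning to -0.35 with ERCC scaling). The log2 ratio of FARSA to FARSB CPM in single wells was -0.66 to 0.90 (median -0.13) with ActD, 0.24 to 1.06 (median 0.55) with AZ5576 and 0.54 to 2.48 (median 1.52) with DMSO. This ratio does not depend on the scaling, and its groups overlap between ActD and DMSO only above 0.54. KARS1 had 127 to 217 CPM (median 160) in ActD wells and 61.4 to 173 (median 113) in DMSO wells, a log2 fold change of 0.47 (SE 0.0878, adjusted p = 4.57e-06) that turned to -0.44 with ERCC scaling. WARS1 stood at 0.44 (SE 0.121, adjusted p = 0.0019) and NARS1 (asparagine) at 0.36 (SE 0.126, adjusted p = 0.0146), and both turned with ERCC scaling, to -0.475 and -0.567. The WARS1 call was kept in 8 of 12 alternatives and the NARS1 call in 5 of 12. NARS1 was also lost with RLE factors, by library size alone and without the filter.

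AARS1 fell to a median of 19.3 CPM in ActD wells, against 34.3 in DMSO wells, and 4 of the 6 ActD wells lay below every DMSO well (log2 fold change -0.63, SE 0.19, adjusted p = 0.00223). YARS1 was at -0.26 (SE 0.0976, adjusted p = 0.0231) and QARS1 (glutamine) at -0.34 (SE 0.136, adjusted p = 0.029). Of the mitochondrial members, PARS2 gave 1 count in 6 ActD wells and 93 in 24 DMSO wells, a ratio of 0.0579 with an exact counting interval of 0.00145 to 0.331 (edgeR adjusted p = 3.18e-05). MARS2 had 0 to 6.04 CPM (median 2.97) in ActD wells and a median of 8.27 in DMSO wells (log2 fold change -1.50, SE 0.493, adjusted p = 0.00144). YARS2 stood at -0.77 (SE 0.264, adjusted p = 0.00612) and TARS2 (mitochondrial threonine) at -1.57 (SE 0.766, adjusted p = 0.0287).

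Nearest the threshold without a call were RARS1 (log2 fold change 0.25, adjusted p = 0.0707), HARS2 (-0.67, adjusted p = 0.0725), MARS1 (-0.29, adjusted p = 0.0952) and CARS1 (-0.39, adjusted p = 0.132). The TARS2 and QARS1 calls were lost without the first-column DMSO wells (adjusted p = 0.0752 and 0.072). Higher and lower calls numbered 3 and 11 with RLE factors, 2 and 13 by library size alone and 0 and 33 on the ERCC scale, under which the median of all genes was -1.03. Over all genes tested they numbered 1051 and 3425 by library size alone and 32 and 9238 on the ERCC scale. With a single plate, 6 members were called without plate 1, and 2 members without plate 2.

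The direct comparison of ActD with AZ5576 asks where both blocks differ, with 6 wells each and unknown doses. FARSA was lower with ActD than with AZ5576 by a log2 difference of -0.57 (SE 0.138, 95% interval -0.843 to -0.301, adjusted p = 0.00316), and it was the only one of the 35 members called, while 3.21% of all genes differed. On either plate alone this call was lost (log2 difference -0.512, adjusted p = 0.432 without plate 1, and -0.605, adjusted p = 0.187 without plate 2). For KARS1 the difference was 0.16 (95% interval -0.0601 to 0.389, adjusted p = 0.601), for which neither equality nor a difference was shown.

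DRB, an inhibitor of CDK9 and other kinases of elongation, had 2 wells. It called 3 cytosolic members higher and 3 lower and 1 mitochondrial member higher and 3 lower, against 12.8% of all genes higher and 15.7% lower. AARS1 had 5.46 and 16.3 CPM in the DRB wells, below the lowest DMSO well at 22.3 (log2 fold change -1.77, SE 0.459, adjusted p = 8.17e-05). FARSA was at -0.51 (SE 0.164, adjusted p = 0.00838), and MARS1 (methionine), whose 3′ end overlaps DDIT3 on the opposite strand, at -0.68 (SE 0.276, adjusted p = 0.035). The MARS1 call was kept in 7 of 11 alternatives and lost without the filter (adjusted p = 0.0926), with methylation inhibitor wells as the reference (0.168) and on either plate alone. DDIT3 averaged 2.73 CPM in DRB wells and 39.6 in DMSO wells, with both DRB wells below every DMSO well, and its part in the MARS1 value was not tested. KARS1 (0.50, SE 0.14, adjusted p = 0.00427), WARS1 (0.64, SE 0.186, adjusted p = 0.00718) and FARSB (0.53, SE 0.204, adjusted p = 0.0442) were higher, and all 3 turned negative with ERCC scaling (-0.366, -0.236 and -0.344). The FARSB call was kept in 0 of 11 alternatives. Against 4 higher and 6 lower members with TMM, there were 3 and 8 with RLE factors, 0 and 11 by library size alone and 0 and 26 on the ERCC scale. Over all genes tested there were 341 higher and 2712 lower by library size alone, and 25 and 6747 on the ERCC scale.

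PARS2 had 0 counts in both DRB wells, a level at least 1.92-fold lower than in DMSO wells, with the floor at 3 counts over the group (edgeR adjusted p = 0.00877). AARS2 also had 0 counts there, at least 1.47-fold lower (edgeR adjusted p = 0.034). MARS2 gave 2 counts against 142 in DMSO wells, a ratio of 0.227 with a counting interval of 0.0273 to 0.836 (edgeR adjusted p = 0.03). EARS2, the mitochondrial glutamyl enzyme, had 16.4 and 21.0 CPM with DRB and 2.95 to 17.5 (median 8.19) with DMSO, and was the only mitochondrial member higher under a block of transcription (log2 fold change 1.15, SE 0.376, adjusted p = 0.0232), a call kept in 5 of 11 alternatives.

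THZ531, which inhibits CDK12 and CDK13, called 1 cytosolic member higher and 1 lower and 1 mitochondrial member lower, against 7.27% of all genes higher and 7.96% lower. FARSA had 81.2 and 84.2 CPM in THZ531 wells, below every DMSO well (94.3 to 160.7; log2 fold change -0.73, SE 0.202, adjusted p = 0.00308). KARS1 had 162 and 163 CPM, within the range of DMSO wells (61.4 to 173; log2 fold change 0.47, SE 0.16, adjusted p = 0.0387, turning to -0.33 with ERCC scaling). PARS2 had 0 counts in both THZ531 wells, at least 1.33-fold lower than DMSO (adjusted p = 0.0497). Without the first-column DMSO wells KARS1 (adjusted p = 0.0806) and PARS2 (0.0785) were no longer called and FARSA was the 1 call left; on either plate alone 0 members were called. SARS1 (log2 fold change -0.44, adjusted p = 0.0848), LARS1 (0.70, adjusted p = 0.0858), AARS1 (-0.88, adjusted p = 0.092) and FARS2 (0.96, adjusted p = 0.0951) were nearest the threshold.

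In the direct comparison of THZ531 with AZ5576, 0 of the 35 members differed by edgeR, against 1.8% of all genes, with 5 members at an unadjusted p under 0.05 by edgeR, 3 by DESeq2 and 0 called by DESeq2. The interval of the FARSA difference ran from -0.803 to 0.0545. For FARS2 (mitochondrial phenylalanine) the difference was 1.36 (95% interval 0.459 to 2.27, adjusted p = 0.152). THZ1, a covalent CDK7 inhibitor that shares its reactive acrylamide group with THZ531, was compared with it as well, and 0 members differed by edgeR, against 0.669% of all genes (2 members at an unadjusted p under 0.05 by edgeR, 1 by DESeq2 and 0 called by DESeq2). TARS1 (threonine) had the smallest p, with a difference of 1.12 (95% interval 0.408 to 1.83, adjusted p = 0.146). With 2 wells each these intervals are wide, and they do not show that the compounds act alike.

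THZ1 against DMSO called 1 member higher and 2 lower, against 11.8% of all genes in either direction. KARS1 had 190 and 224 CPM, above every DMSO well (log2 fold change 0.81, SE 0.151, adjusted p = 4.83e-05), but stood at -0.04 with ERCC scaling. AARS1 had 9.06 and 9.88 CPM, below every DMSO well (log2 fold change -1.89, SE 0.588, adjusted p = 0.00203), and FARSA was at -0.62 (SE 0.201, adjusted p = 0.0188). This FARSA call was kept in 7 of 11 alternatives. A159 called 4 members, against 21.1% of all genes. MARS2 and PARS2 had 0 counts in both A159 wells, at least 2.87-fold and 1.88-fold lower than in DMSO wells. FARSA (-0.54, SE 0.166, adjusted p = 0.00891) was lower, and WARS1 (0.55, SE 0.192, adjusted p = 0.0348, -0.22 with ERCC scaling) was higher. This WARS1 call was kept in 4 of 11 alternatives. Triptolide, which blocks initiation through the XPB subunit of TFIIH, called CARS1 alone (7.79 and 8.78 CPM, against 13.5 to 48.9 in DMSO wells; log2 fold change -1.58, SE 0.627, adjusted p = 0.0287), against 11.3% of all genes. This CARS1 call was kept in 7 of 11 alternatives.

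OTS964, which inhibits CDK11, called 0 of 35 members by edgeR and 0 by DESeq2, against 8.46% of all genes higher and 8.61% lower by edgeR. At an unadjusted p under 0.05 there were 3 members by edgeR and 2 by DESeq2. QARS1 was nearest, with 73.2 and 90.2 CPM in OTS964 wells and 44.2 to 90.0 in DMSO wells (log2 fold change 0.48, SE 0.177, adjusted p = 0.0542), followed by PARS2 (0 and 1.92 CPM, adjusted p = 0.0904), RARS2 (0.60, adjusted p = 0.112) and HARS2 (0.71, adjusted p = 0.197). Without the first-column DMSO wells 1 member was called. With ERCC scaling 0 members were higher and 21 lower, as the median of all genes moved to -0.84. Of all genes tested, 25 were then higher and 5469 lower.

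**Figure D3:**
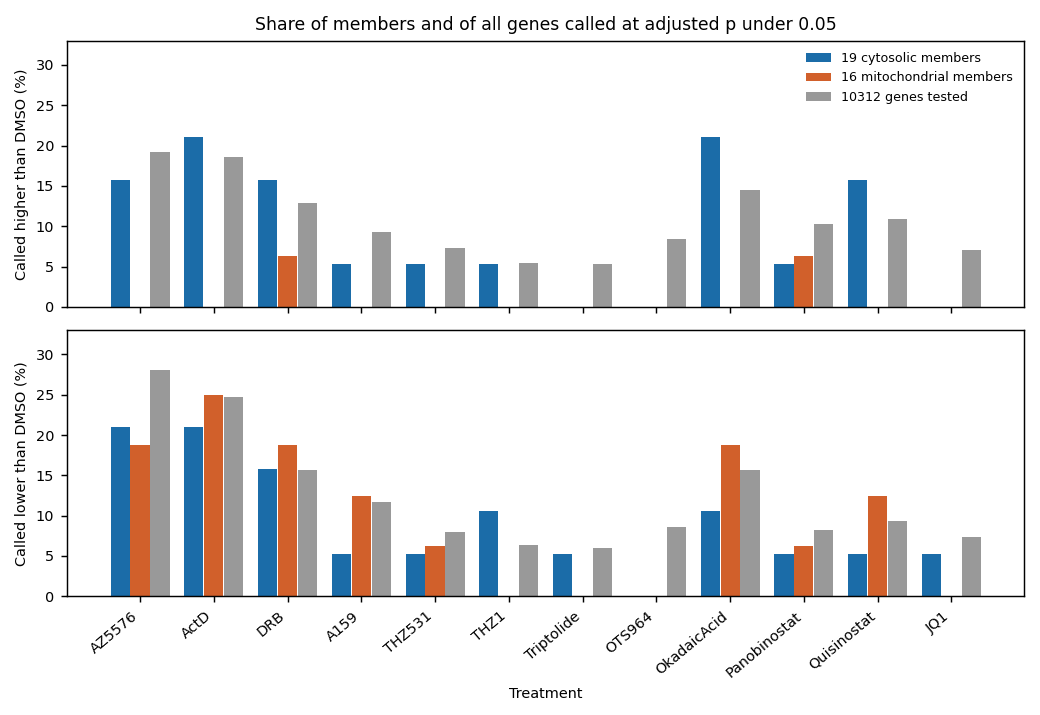
Percentage of the 19 cytosolic members (blue), the 16 mitochondrial members (orange) and the 10312 genes tested (grey) called higher (top) or lower (bottom) than DMSO in 12 treatments, at adjusted p under 0.05 by edgeR. No mitochondrial bar stands in the top panel outside DRB and Panobinostat, and OTS964 has no member in either panel.

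PARS2 and MARS2 share a feature of gene structure that the choice of the list did not use. In the principal transcripts of GENCODE v29, MARS2 has 1 exon and PARS2 2, and the other 33 members have at least 5. Among all genes with such a transcript, 56.77% of the 465 genes with at most 2 exons were lower under AZ5576, against 30.78% of the 7613 with 3 or more. With ActD these shares were 54.19% and 26.09%, with DRB 36.77% and 16.81%, and with JQ1, which does not call either member, 14.19% and 8.43%. Exon number was looked at after the values of these genes were seen, so the shares are a description. Both genes are also among those with the fewest counts (4.53 per well for PARS2 and 5.79 for MARS2).

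Okadaic acid, an inhibitor of the protein phosphatases PP1 and PP2A, called members in both directions, as it did genes at large. Of the cytosolic members 4 were higher and 2 lower, and of the mitochondrial members 0 were higher and 3 lower, against 14.4% of all genes higher and 15.6% lower. The cytosolic median was 0.26 and 14 of 19 members were above 0, while the mitochondrial median was 0.03 with 8 of 16 above 0 (all genes -0.07).

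FARSB had 77.25 and 81.1 CPM with okadaic acid, above the highest DMSO well at 67.2 (log2 fold change 0.68, SE 0.157, adjusted p = 0.000391). WARS1 had 87.3 and 104 CPM, against 37.8 to 91.8 (median 58.3) in DMSO wells (0.67, SE 0.148, adjusted p = 0.0002). NARS1 (0.50, SE 0.155, adjusted p = 0.00964) and KARS1 (0.43, SE 0.118, adjusted p = 0.00221) were higher as well, with wells inside the DMSO range. VARS1 (valine) had 84.2 and 89.6 CPM, below the lowest DMSO well at 98.3 (-0.53, SE 0.144, adjusted p = 0.00184), and QARS1 was at -0.47 (SE 0.179, adjusted p = 0.0282). All 4 risers kept their direction with ERCC scaling, where FARSB and WARS1 were still called.

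The valyl enzymes of both compartments fell together with okadaic acid. VARS2 had 6.16 and 11.2 CPM, below every DMSO well (13.3 to 34.9), with a log2 fold change of -1.30 (SE 0.419, adjusted p = 0.00304). SARS2 (mitochondrial serine) had 3.36 and 6.16 CPM, against 4.08 to 27.8 in DMSO wells (-1.40, SE 0.474, adjusted p = 0.00385), and CARS2 had 5.598 and 11.3 CPM, against 3.48 to 34.7 (-1.11, SE 0.404, adjusted p = 0.0113). PARS2 (-1.39, adjusted p = 0.0817), IARS1 (0.30, adjusted p = 0.0935), GARS1 (0.29, adjusted p = 0.105) and HARS1 (0.28, adjusted p = 0.134) came nearest without a call. All 3 scaffolds of the multisynthetase complex rose: AIMP2 by 0.77 (SE 0.129, adjusted p = 7.21e-07), EEF1E1 by 0.61 (SE 0.0856, adjusted p = 8.74e-10) and AIMP1 by 0.40 (SE 0.138, adjusted p = 0.0209). Of the 7 complex-bound members, KARS1 was higher, QARS1 lower and 5 not called. Of 4 cytosolic elongation factors tested, which carry charged tRNA to the ribosome or move it along, 3 rose, with EEF1A1 at 0.88 (SE 0.0869, adjusted p = 4.57e-18). QARS1 lost its call with DESeq2 (adjusted p = 0.0899) and without the first-column DMSO wells (0.0628). With a single plate, 2 members were called without plate 1, and 1 member without plate 2.

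Inhibitors of histone deacetylases (HDACs) raised the arginyl enzyme. RARS1 had 85.5 and 94.6 CPM with Panobinostat, 94.4 and 110 with Quisinostat and 96.2 and 104 with Vorinostat, against 34.8 to 83.8 (median 60.9) with DMSO. All 6 of these HDAC inhibitor wells lay above all 24 DMSO wells. The log2 fold change was 0.52 (SE 0.149, adjusted p = 0.00732) with Panobinostat, 0.71 (SE 0.132, adjusted p = 1.01e-05) with Quisinostat and 0.68 (SE 0.179, adjusted p = 0.0133) with Vorinostat. These 3 comparisons share their DMSO wells. With ERCC scaling RARS1 stayed called with Quisinostat, and with Panobinostat and Vorinostat it kept its direction without a call. Other compounds known as HDAC inhibitors, at doses that are likewise not given, left RARS1 uncalled. Examples are -0.21 (SE 0.167) for NexturastatA, -0.09 (SE 0.149) for MC1568, -0.11 (SE 0.183) for RGFP966 and -0.02 (SE 0.16) for PCI_34051. Beyond the 3 compounds above, RARS1 was called with AZ5576 alone. The labels RGF966 and PCI34051, spelled much like RGFP966 and PCI_34051, were kept as separate treatments.

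Panobinostat called 1 cytosolic member higher and 1 lower and 1 mitochondrial member in each direction, against 10.3% of all genes higher and 8.18% lower. AARS1 had 13.25 and 22.45 CPM, against 22.3 to 51.2 in DMSO wells (log2 fold change -1.02, SE 0.301, adjusted p = 0.00275). RARS2, the mitochondrial arginyl enzyme, had 32.1 and 37.3 CPM, above the highest DMSO well at 31.0 (0.60, SE 0.22, adjusted p = 0.0498), and YARS2 had 6.02 and 14.4 CPM, against 7.53 to 28.9 (-0.95, SE 0.388, adjusted p = 0.0418). The RARS2 and YARS2 calls were lost with DESeq2 (adjusted p = 0.0988 and 0.149). RLE factors gave 1 higher and 2 lower members, library size alone 1 and 3, and ERCC scaling 0 and 2; 0 members were called without plate 1 and 1 without plate 2. Of all genes tested, library size alone called 862 higher and 1011 lower, and ERCC scaling 503 and 789. VARS1 (-0.36, adjusted p = 0.073), KARS1 (0.32, adjusted p = 0.073), HARS1 (0.37, adjusted p = 0.0748) and WARS1 (0.42, adjusted p = 0.0829) were nearest the threshold.

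Quisinostat called 3 cytosolic members higher and 1 lower and 2 mitochondrial members lower, against 10.8% of all genes higher and 9.33% lower. EPRS1, the fused glutamyl and prolyl enzyme, had 58.2 and 77.2 CPM, against 30.8 to 63.9 (median 45.2) in DMSO wells (log2 fold change 0.57, SE 0.158, adjusted p = 0.00529). HARS1 (histidine) had 79.0 and 87.0 CPM, within the DMSO range of 45.2 to 108 (0.41, SE 0.138, adjusted p = 0.0241), a call kept in 5 of 11 alternatives. YARS1 was at -0.38 (SE 0.132, adjusted p = 0.0251). VARS2 had 5.44 and 8.78 CPM, below every DMSO well (-1.57, SE 0.461, adjusted p = 0.000946), and SARS2 had 4.39 and 6.53 CPM (-1.24, SE 0.452, adjusted p = 0.0141). With ERCC scaling 1 member was higher and 2 lower, against 694 and 626 of all genes tested. Vorinostat called RARS1 alone, against 4.54% of all genes.

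**Figure D4:**
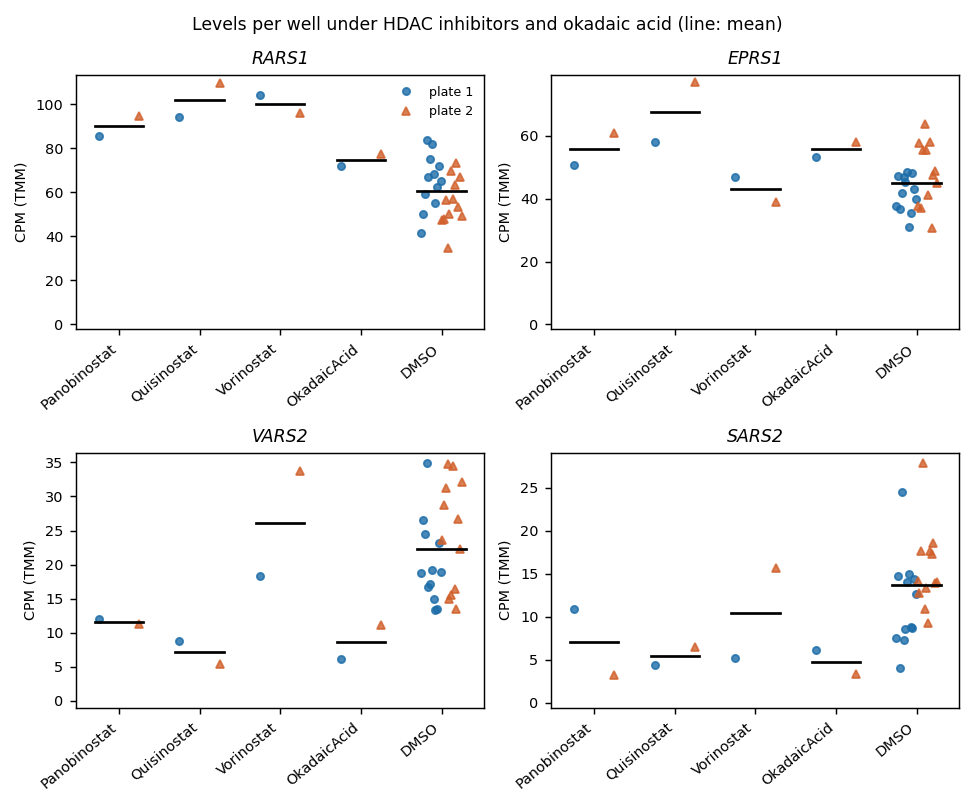
Levels of RARS1, EPRS1, VARS2 and SARS2 in single wells (CPM with TMM factors) with 3 HDAC inhibitors, okadaic acid and DMSO; circles are plate 1, triangles plate 2, lines are means. RARS1 lies above all DMSO wells in every HDAC inhibitor well shown, and VARS2 lies below all DMSO wells with Quisinostat and okadaic acid.

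HARS1 and HARS2 are transcribed away from each other from start sites with 84 bases between them, so this shared stretch is shown for the only such pair looked at within the list. In RefSeq (GRCh38.p14) it lies at chr5:140691371-140691454, with HARS1 on the minus strand to its left and HARS2 on the plus strand to its right, and is written on the plus strand.
HARS1/HARS2: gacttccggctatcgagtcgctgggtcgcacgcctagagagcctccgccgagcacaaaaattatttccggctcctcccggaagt
HARS1 was higher with Quisinostat and with EI1, and HARS2 was called in 0 treatments. HARS2 had 7.74 counts per well on average and HARS1 45.7.

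Inhibitors of BET proteins and of p300 and CBP lowered single members. JQ1 called FARSA (60.9 to 119 CPM, median 99.8, with JQ1 and 94.3 to 160.7, median 137, with DMSO; log2 fold change -0.46, SE 0.104, adjusted p = 0.00026), 1 of 19 cytosolic and 0 of 16 mitochondrial members, against 7.0% of all genes higher and 7.41% lower. Of the 6 JQ1 wells 4 lie in the shallow first plate column. Without all wells of that column FARSA was at -0.34 and not called (adjusted p = 0.0525), and without plate 1 the adjusted p was 0.113. FARSA in DMSO wells averaged 121 ± 20.1 CPM in the first column (SD, n = 8) and 143 ± 10.6 elsewhere (SD, n = 16). AARS1 (-0.47, adjusted p = 0.0705), HARS1 (0.29, adjusted p = 0.0928), YARS1 (-0.24, adjusted p = 0.108) and VARS1 (-0.24, adjusted p = 0.127) were nearest the threshold. By library size alone 5 members were lower, and on the ERCC scale 16. Of all genes tested, 433 were higher and 1176 lower by library size alone, and 179 and 2670 on the ERCC scale.

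IBET_762, of the same class, called AARS1 and VARS1, against 5.12% of all genes. AARS1 had 17.1, 18.4, 20.01 and 30.3 CPM in the 4 IBET_762 wells, and 3 of these lay below every DMSO well (log2 fold change -0.66, SE 0.186, adjusted p = 0.0111). VARS1 had 71.8, 86.7, 100.7 and 123.9 CPM (-0.35, SE 0.107, adjusted p = 0.0267), a call kept in 3 of 11 alternatives. Among others it was lost on the ERCC scale (adjusted p = 0.193) and without the first-column DMSO wells (adjusted p = 0.0744). FARSA was at -0.08 (SE 0.0918) with IBET_762, with doses unknown for both BET inhibitors. A241 called VARS1 alone, against 5.03% of all genes. VARS1 had 69.5 and 92.7 CPM there, below every DMSO well (-0.64, SE 0.18, adjusted p = 0.012). The call was kept in 7 of 11 alternatives and lost, among others, on the ERCC scale and without the plate term.

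A485 called SARS1, the cytosolic seryl enzyme, and no other member, against 1.88% of all genes higher and 2.49% lower. SARS1 had 90.3 to 119 CPM (median 105) with A485 and 104 to 169.6 (median 131) with DMSO, and 3 of the 6 A485 wells lay below every DMSO well (log2 fold change -0.37, SE 0.0985, adjusted p = 0.00972). Of the A485 wells 4 lie in the first column, and without all wells of that column the adjusted p was 0.161 at a log2 fold change of -0.35. On either plate alone 0 members were called, and without the first-column DMSO wells 4 were. Nearest the threshold were VARS1 (-0.31, adjusted p = 0.064), PARS2 (0.85, adjusted p = 0.122), TARS1 (-0.35, adjusted p = 0.155) and KARS1 (-0.24, adjusted p = 0.174).

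JIB_04, an inhibitor of Jumonji histone demethylases, and Phendione each called 2 of the 19 cytosolic members, both higher, and no shift of the set was tested. WARS1 had 94.8 and 145 CPM with JIB_04, above every DMSO well (37.8 to 91.8; log2 fold change 0.97, SE 0.155, adjusted p = 4.88e-06). YARS1 had 143 and 149 CPM, above the highest DMSO well at 131 (0.48, SE 0.121, adjusted p = 0.0114), a call kept in 5 of 10 alternatives. These were the 2 members called with JIB_04, against 2.34% of all genes. The cytosolic median was 0.25 with 15 of 19 members above 0, and that of all genes -0.01. MS023, with 1 member called, had 17 of 19 above 0 at a median of 0.12 (all genes -0.02).

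Phendione called FARSA and TARS1, both higher, against 7.44% of all genes. FARSA had 178 and 191 CPM, above the highest DMSO well at 160.7 (0.42, SE 0.113, adjusted p = 0.00814). This call was kept in 7 of 11 alternatives. It was lost by library size alone (log2 fold change 0.299) and on the ERCC scale (0.0848). TARS1 had 61.3 and 74.5 CPM, against 32.4 to 69.5 (median 47.4) with DMSO (0.49, SE 0.157, adjusted p = 0.039), a call kept in 5 of 11 alternatives. The cytosolic median was 0.27, also with 15 of 19 members above 0, and WARS1 (0.45, adjusted p = 0.0718) was not called. With TMM, FARSA was thus called higher with Phendione, as it was with Pirarubicin, and lower with 8 other treatments.

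The amino acid response list holds 30 ATF4 targets and related genes, of which 26 were tested. Of these 26, 12 were higher and 0 lower with JIB_04 and 13 higher and 0 lower with Phendione, and 1 was higher and 0 lower with MS023. Over all 10312 genes tested, 166 were higher and 75 lower with JIB_04, 488 and 279 with Phendione, and 52 and 9 with MS023. ATF4 itself was at 0.87 (SE 0.141) with JIB_04 and 0.89 (SE 0.132) with Phendione, DDIT3, a factor of the stress response, at 1.41 (SE 0.16) and 2.02 (SE 0.135), and ASNS, asparagine synthetase, at 0.83 (SE 0.175) with JIB_04, and these directions held with every scaling tried. On the TMM scale 3 of the 26 were higher and 10 lower under AZ5576 (19.2% and 28.1% of all genes), 5 and 10 under ActD (18.6% and 24.7%), 0 and 4 under THZ531 (7.27% and 7.96%) and 2 and 5 under OTS964 (8.46% and 8.61%). DDIT4, an inhibitor of mTORC1 signalling, was at -2.70 (SE 0.313) under AZ5576 and -3.21 (SE 0.362) under ActD. Okadaic acid gave 8 higher and 3 lower (14.4% and 15.6% of all genes), Panobinostat 6 and 6 (10.3% and 8.18%), JQ1 4 and 3 (7.0% and 7.41%), and A485 0 and 3 (1.88% and 2.49%). Beside these, 2 of 19 cytosolic synthetases were called with JIB_04 and 2 of 19 with Phendione.

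**Figure D5:**
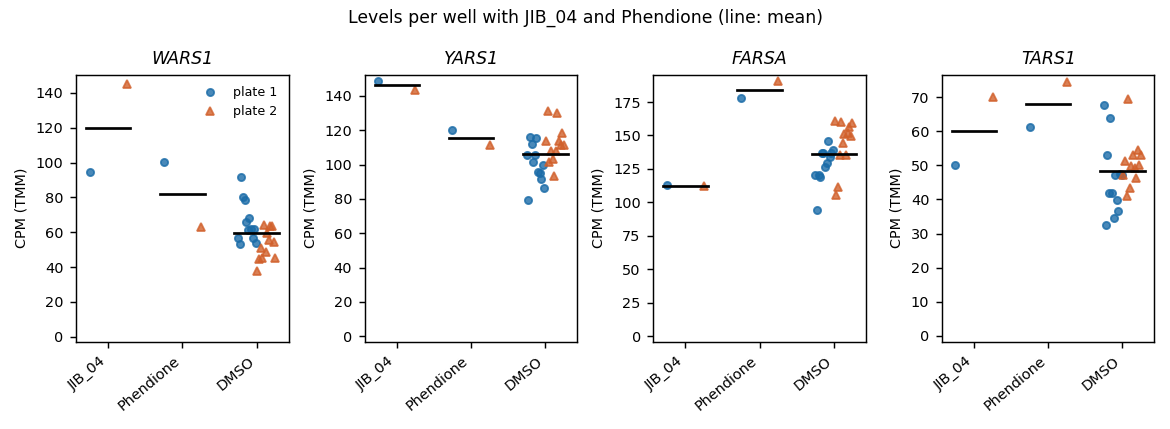
Levels of WARS1, YARS1, FARSA and TARS1 in single wells (CPM with TMM factors) with JIB_04, Phendione and DMSO; circles are plate 1, triangles plate 2, lines are means. WARS1 and YARS1 lie above all DMSO wells with JIB_04, and FARSA lies above them with Phendione.

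ATF4 with a CEBP partner is known to bind a short element whose core is TGATGNAA. Whether it plays a part in the values above was not tested. Promoter windows from RefSeq (GRCh38.p14), running from 250 bases before to 50 after a start site, were used for 30 of the 35 members (39 windows), and both strands were searched. The core was in a window of 7 of 16 cytosolic members and of 1 of 14 mitochondrial members, YARS2, while 3.617% of all 35116 windows hold it. A member counts if any of its windows holds the core, so the share of single windows is not a like measure. A match is a run of letters and not a measured site. The 7 cytosolic matches are shown, each as 30 bases on the strand of the gene, with the matched letters in capitals (in all but NARS1 the match lies on the opposite strand).
AARS1, chr16:70289675-70289704, minus strand: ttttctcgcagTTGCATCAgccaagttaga
CARS1, chr11:3057407-3057436, minus strand: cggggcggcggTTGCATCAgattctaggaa
GARS1, chr7:30594834-30594863, plus strand: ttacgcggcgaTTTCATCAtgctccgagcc
IARS1, chr9:92293692-92293721, minus strand: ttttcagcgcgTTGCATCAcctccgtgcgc
MARS1, chr12:57488053-57488082, plus strand: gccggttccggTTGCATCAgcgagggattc
NARS1, chr18:57621804-57621833, minus strand: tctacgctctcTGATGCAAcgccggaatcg
TARS1, chr5:33440956-33440985, plus strand: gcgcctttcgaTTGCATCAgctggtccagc

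The 7 genes with the core stood at a median of 0.31 with Phendione, 7 of 7 above 0 and 1 called (TARS1). With JIB_04 their median was 0.33, 6 of 7 above 0 and 0 called. MARS1 is among the 7, and its 3′ end overlaps DDIT3 on the opposite strand. DDIT3 was at 2.02 with Phendione and 1.41 with JIB_04, and its part in the MARS1 values was not tested. The 9 cytosolic members with a window and no match had medians of 0.13 with Phendione and 0.15 with JIB_04, and 6 of 9 were above 0 in each. With MS023 the medians were 0.25 with the core (7 of 7 above 0) and 0.03 without it (8 of 9), and with okadaic acid 0.29 and 0.28. Under THZ531 the medians were -0.50 with and -0.19 without the core, and under Quisinostat -0.23 and 0.22. The groups differ in single genes as well, since WARS1 and FARSA, the members with the smallest p for JIB_04 and Phendione, are not among the 7. No test was made of this split.

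Cores of other factors were searched in the same windows, again counting members by any window and the percentages by single windows. The E box CACGTG was in a window of 1 of 16 cytosolic members (IARS1) and 3 of 14 mitochondrial members (CARS2, EARS2 and MARS2), against 7.256% of all windows. The NRF1 core (GCGCA, any base, GCGC), of a factor known for genes of mitochondrial function, was in 3 of 16 (FARSB, SARS1 and TARS1) and 3 of 14 (IARS2, MARS2 and PARS2), against 5.784%.

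The remaining calls came from 5 compounds with 2 wells each. CPI_169, an EZH2 inhibitor, called 1.88% of all genes. It lowered MARS1 to 16.5 and 20.4 CPM, against 18.9 to 61.2 (median 48.8) with DMSO (log2 fold change -1.40, SE 0.272, adjusted p = 1.51e-05). FARSA was also lower (-0.45, SE 0.133, adjusted p = 0.0408), a call kept in 5 of 10 alternatives. The last 1000 bases of MARS1 overlap DDIT3 on the opposite strand in GENCODE v29, and reads of both cannot be told apart where counting ignores strand, which is not stated. DDIT3 was at 0.27 (adjusted p = 0.592) with CPI_169. EI1, another EZH2 inhibitor, called HARS1 (0.52, SE 0.154, adjusted p = 0.0493), against 2.33% of all genes, a call kept in 3 of 10 alternatives. MS023, an inhibitor of arginine methyltransferases, called WARS1 (90.7 and 97.8 CPM; 0.66, SE 0.151, adjusted p = 0.0113), against 0.592% of all genes. PFI2_HCl, an inhibitor of SETD7, called CARS1 (-1.20, SE 0.372, adjusted p = 0.0338), against 1.17%, a call kept in 3 of 10 alternatives. Pirarubicin, an anthracycline, called FARSA higher (164 and 211 CPM, above every DMSO well; 0.44, SE 0.11, adjusted p = 0.0194), against 0.892%, a call kept in 4 of 11 alternatives.

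Within the cytosolic set, enzymes in and outside the multisynthetase complex are given by their counts. Under AZ5576 the 7 complex-bound members had 2 higher and 0 lower calls (median 0.04) and the other 12 cytosolic members 1 and 4 (median -0.08), against 19.2% of all genes higher and 28.1% lower. Both higher calls, KARS1 and RARS1, turned negative by library size alone (-0.0222 and -0.0462) and on the ERCC scale (-0.425 and -0.453). Cytosolic class I members (9, leaving out the fused EPRS1) had 1 higher and 2 lower under AZ5576 and 1 and 2 under ActD, and class II members (9) had 2 and 2 and then 3 and 2. Of the genes that encode both forms, KARS1 was higher in 6 treatments and GARS1 was called in 0. Of 4 mitochondrial elongation factors, TUFM, which carries charged tRNA in mitochondria, was higher under AZ5576 (0.16, SE 0.0499, adjusted p = 0.00417), though at -0.166 by library size alone and -0.577 on the ERCC scale. The scaffolds of the complex had 1 higher call under AZ5576 (AIMP1, 0.41, but -0.328 on the ERCC scale), 1 higher (EEF1E1, 0.16, but -0.0112 by library size alone and -0.75 on the ERCC scale) and 1 lower (AIMP2, -0.43) under ActD, 1 lower under each of Panobinostat and JQ1 (EEF1E1 both times), and 0 of 3 under THZ531, OTS964 and A485. The mitochondrial amidotransferase converts misacylated glutamyl-tRNA to glutaminyl-tRNA, and of its subunits GATC was higher under AZ5576 (0.57, SE 0.21, adjusted p = 0.0247, but -0.175 on the ERCC scale) and QRSL1 with okadaic acid (1.10, SE 0.313, adjusted p = 0.00618). Copies named as pseudogenes exist for several members (KARS1, CARS1, AARS1 and RARS1 among them), and reads can be shared with them. The last 1000 bases of HARS1, AARS2, WARS1, LARS1 and NARS2 overlap genes on the opposite strand (WDR55 for HARS1 and TMEM151B for AARS2). Those of HARS2, MARS2 and SARS2 overlap genes on the same strand (ZMAT2 for HARS2), where strand cannot tell the reads apart. The counts of all these members carry a like doubt.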

How the data were processed

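Wells of K562 cells on both plates were taken from the files in which the authors deposited expected counts per gene, with whole numbers on every gene line, with 92 ERCC lines beside them; the 6 summary lines that name no gene stayed out of library sizes and tests. The submitters' processing notes list R 4.0.2, cutadapt 2.1, FastQC 0.11.6, bcl2fastq 2.17.1.14 and the build GRCh37/hg19. The sources used here name neither aligner nor counter nor strand setting. Because counts come from 3′ ends and are not divided by length, levels of different genes are not compared.

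All 192 wells entered 1 edgeR 4.0.16 quasi-likelihood model (R 4.3.3) with a term per treatment and a plate term, after filterByExpr and TMM scaling; p-values were adjusted by Benjamini-Hochberg within each comparison (threshold 0.05). The labels give the plate as the replicate number, and each plate is 1 pooled library, so the plate was kept as a block. The fitting code was tested on simulated data. Of 96 pairs of wells at the same position of both plates, 0 held identical counts. Alternatives were RLE factors, library size alone, ERCC scaling, no filter, DESeq2 1.42.0, no plate term, single plates, wells of methylation inhibitors as the reference, and wells of the first plate column left out or given a term. The pool of methylation inhibitor wells includes the demethylase inhibitor JIB_04.

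Members and lists were chosen with earlier results of these data known, and some marker genes are not reported here. Per comparison up to 6 called members per set and direction with the smallest p, and up to 4 uncalled ones nearest the threshold, are named; other treatments have up to 3 per direction.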

Additional observations from a re-analysis of the deposited data

Results flagged for a closer look

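PARS2 stood at 2.018 CPM in a single one of the 6 ActD wells, with the other 5 wells at 0. The gap between that well and the others was past Dixon's 95% critical value for a group of 6. With the other 5 wells tied at 0, any count above 0 would have passed it, so the mark carries no information. The value rests on 1 count. Of 26 groups tested this way, chance alone would mark about 1 in 20 for continuous values, a rate that does not hold for counts this near 0.

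FARSA was singled out by the test of the difference between both blocks of transcription, with a log2 difference of -0.572 for ActD minus AZ5576 (SE 0.138, edgeR adjusted p = 0.00316). In ActD wells FARSA had 57.8 to 86.8 CPM and in AZ5576 wells 96.0 to 123.7 CPM, so the groups of 6 wells did not overlap. Doses are not given for either compound.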

How the results depend on the processing

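Library size alone gave 18 called members for AZ5576 (10 with TMM), 2 for OTS964 (0) and 5 for JQ1 (1). ERCC scaling gave 31 for AZ5576, 33 for ActD (12), 21 for THZ531 (3), 21 for OTS964, 5 for okadaic acid (9), 2 for Panobinostat (4), 16 for JQ1 and 256 member calls over all treatments (78). Under it WARS1 stood at -0.217 with A159; FARSB, KARS1 and RARS1 at -0.263, -0.425 and -0.453 with AZ5576; KARS1, FARSB, WARS1 and NARS1 at -0.444, -0.348, -0.475 and -0.567 with ActD; KARS1, WARS1 and FARSB at -0.366, -0.236 and -0.344 with DRB; and KARS1 at -0.0407 with THZ1 and -0.33 with THZ531. With library size alone, KARS1 and RARS1 stood at -0.0222 and -0.0462 with AZ5576. The cause of these turns was not tested. Of all 10312 genes tested, library size alone called 491 higher and 4711 lower for AZ5576 and 184 and 1537 for OTS964. For JQ1 it called 433 and 1176. ERCC scaling called 40 higher and 8125 lower for AZ5576, 32 and 9238 for ActD, and 42 and 5587 for THZ531. For OTS964 it called 25 and 5469, for JQ1 179 and 2670, for okadaic acid 709 and 1153, and for Panobinostat 503 and 789.

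Without the filter 1 member was called for THZ531, 2 for Panobinostat and 49 member calls over all treatments, and DESeq2 called 2 for Panobinostat. Leaving out the first-column DMSO wells gave 1 member for THZ531, 1 for OTS964, 2 for JQ1 and 4 for A485. A term for that column gave 1, 1, 4 and 2. Leaving out all its wells, an alternative chosen after seeing the data, gave 1, 1, 0 and 0. Methylation inhibitor wells as the reference gave 2 for OTS964, 3 for JQ1 and 2 for A485; 5 treatments with called members belong to those wells and have no value there.

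Single plates leave groups of 2 wells with a lone well, assumed to vary like the other groups. They gave 2 to 5 members for AZ5576, 2 to 6 for ActD, 0 for THZ531 and OTS964, 1 to 2 for okadaic acid, 0 to 1 for Panobinostat and JQ1, 0 for A485, 0 for ActD minus AZ5576 and 9 to 17 member calls over all treatments. Without the plate block there were 67 member calls over all treatments. Of 79 called pairs of a gene and a comparison, 68 kept their call without the plate block, 50 without the filter, 17 without plate 1 and 8 without plate 2, and 1 kept it in every alternative tried.

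Depth limits the mitochondrial members, which averaged 3.11 to 22.9 counts per well.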
